A study of Homo sapiens with 30 samples.

Results

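The NF-kB and inflammatory response genes are 33 listed genes: subunits of the transcription factor NF-kB, its feedback inhibitors, and cytokines, chemokines, survival genes and other genes that it is known to switch on. They were chosen by name, through probe sets that carry a single gene symbol, with the brightest probe set taken for each gene. Of the 33, 29 had such a probe set among the 12690 genes measured, while BIRC3, CSF1, CSF2 and IL1A had none and are not analysed here. The upper 60% of genes by mean value, 7614 in all, were tested, and 18 of the 29 were among them.

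NF-kB is a dimer of RELA, RELB, REL and the products of NFKB1 and NFKB2. In resting cells it is held in the cytoplasm by inhibitors such as IkB-alpha, the product of NFKBIA. Signals from cytokine receptors, microbial products or DNA damage activate IkB kinase, IkB-alpha is degraded, and the dimer enters the nucleus. Its targets include NFKBIA itself and TNFAIP3, which encodes the ubiquitin-editing enzyme A20, so the pathway switches on its own inhibitors. The oxygen-sensing hydroxylases that control hypoxia-inducible factor (HIF) are also known to act on IkB kinase, and NF-kB signalling is often raised in renal carcinoma cells.

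The study measured total RNA from 3 human carcinoma cell lines in monolayer culture, with 30 arrays, each for 1 sample. The renal carcinoma line RCC4 was used on 20 of them, as VHL-null cells or with wild-type VHL reintroduced (VHL-restored). The VHL protein marks HIF for degradation in oxygen. HCT116 colon carcinoma cells were used on 6 arrays and H1299 lung carcinoma cells on 4, each as p53-null cells and as cells with wild-type p53, which in H1299 had been reintroduced. Hypoxia was oxygen below 0.01% in an anoxic incubator, for 0, 1, 2, 4, 6 or 18 h in RCC4, 0, 12 or 24 h in HCT116 and 0 or 24 h in H1299. RCC4 cells of each genotype were also returned to oxygen for 1 h or 4 h after 18 h of hypoxia. Replicates, 2 per group, exist only for RCC4 at 0 h and 18 h. The labels name no separate clones, so other differences between the cells of 2 genotypes cannot be told apart from VHL or p53.

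The values are deposited as linear intensities. A group of 18 arrays (set 1) has no value in 5 control entries that the other 12 (set 2) do have, and the labels do not say what the sets are. The second replicates of RCC4 at 0 h and 18 h are in set 2, with the 1 h, 4 h and reoxygenation arrays. The first replicates are in set 1, with the 2 h and 6 h arrays and every HCT116 and H1299 array. Median listed intensities of set 1 arrays ran from 145 to 174 and those of set 2 arrays from 201 to 222. Null entries, taken here as 0, made up 18.4% to 40.4% of an array, and both ends of that range were in set 2. The lowest share was on VHL-null RCC4 at 0 h, replicate 2, and the highest on VHL-restored RCC4 at 4 h of reoxygenation. The median genes of these 2 arrays, on which they were centred, stood at 8.05 and 7.55 in log2(intensity + 16). All log2 differences below are of log2(intensity + 16) after centring each array on its median gene, which understates the change of dim genes. The precision of arrays is limited by their number.

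Some libraries went against their labels in genes of the hypoxia response. The library labelled H1299 p53-wild-type at 0 h had an intensity of 269 for ENO2 and 267 for PDK1, and that labelled 24 h had 85 and 66. The p53-null pair ran the other way, with 95 and 75 at 0 h and 243 and 192 at 24 h. In VHL-restored RCC4, ENO2 stood at 205 and 259 at 0 h, 1293 at 1 h, 281 at 2 h, 1309 at 4 h, 611 at 6 h and 909 and 1200 at 18 h, so that the 1 h and 4 h arrays were above the 18 h arrays. The main fits that pool these libraries with others were also made without them. The 1 h and 4 h differences of RCC4 rest on the 1 h and 4 h arrays and have no version without them. Of 6 renal markers 2 were on the array, with a summed intensity of 400 to 755 in RCC4 and 172 to 252 in the other lines. Of 8 colon markers 7 were on the array, at 485 to 599 in HCT116, 517 to 884 in RCC4 and 477 to 548 in H1299. Of 5 lung markers 4 were, at 667 to 701 in H1299, 678 to 917 in RCC4 and 677 to 738 in HCT116. The colon and lung lists thus did not set their own lines apart. Of 9 leukocyte markers, 7 were on the array, with a summed intensity of 1261 to 1578 in RCC4 and 1367 to 1485 in the other lines. PTPRC and ITGAM were at 0 on every RCC4 array of set 1, while 4 of the 7 were above the array median there. In set 2 no marker was at 0 on every array, and 2 to 4 were above the median. VHL itself was dim and ran against the labels, at 14 to 109 in the libraries labelled VHL-null and 0 to 40 in those labelled VHL-restored, and higher in VHL-null on 9 of 10 arrays matched by state and replicate. The labels do not say which part of the VHL transcript the probe set or the reintroduced gene covers, so its level does not check the genotype. Every hypoxia gene checked was higher at 0 h in the library labelled VHL-null, in each replicate. ENO2 read 737 and 942 there, against 205 and 259 in VHL-restored libraries, ADM 375 and 524 against 53 and 116. EGLN3 read 48 and 242, against 0 on both VHL-restored arrays. VHL-null and VHL-restored below mean the libraries labelled so.

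Promoters of 27 of the 33 genes, 250 bases before to 50 after a transcription start, were matched in RefSeq (GRCh38.p14). A match to the kB consensus, on either strand, was found for 13 of the 27 genes: BIRC3, CCL20, CFLAR, CXCL1, CXCL2, CXCL3, IL6, IRF1, NFKB1, NFKB2, NFKBIA, REL and TNFAIP3. Over all genes the share was 13.3%, 3619 of 27305. The HIF core motif ACGTG was found for 6 of the 27 genes, against 24.9% of all genes. The bases 100 to 1 before the start are shown for 7 genes with a match there on which the results below turn, with the matches in capitals and each promoter read along its own gene. The overlapping matches on opposite strands run together in CXCL1 and CXCL2. A match is a description of the sequence and not a bound site.
TNFAIP3, chr6:137867159-137867258, plus strand: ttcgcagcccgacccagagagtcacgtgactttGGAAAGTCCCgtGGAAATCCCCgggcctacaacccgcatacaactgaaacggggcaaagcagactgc
NFKBIA, chr14:35404750-35404849, minus strand: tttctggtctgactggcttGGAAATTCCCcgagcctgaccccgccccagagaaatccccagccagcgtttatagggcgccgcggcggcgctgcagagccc
NFKB1, chr4:102501259-102501358, plus strand: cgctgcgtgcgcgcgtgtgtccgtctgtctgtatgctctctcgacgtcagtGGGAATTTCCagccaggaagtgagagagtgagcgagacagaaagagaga
IL6, chr7:22727100-22727199, plus strand: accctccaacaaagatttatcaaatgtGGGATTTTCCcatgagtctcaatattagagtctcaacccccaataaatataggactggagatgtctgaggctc
CXCL1, chr4:73869293-73869392, plus strand: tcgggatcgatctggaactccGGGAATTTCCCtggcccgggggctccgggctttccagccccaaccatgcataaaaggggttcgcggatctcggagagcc
CXCL2, chr4:74099196-74099295, minus strand: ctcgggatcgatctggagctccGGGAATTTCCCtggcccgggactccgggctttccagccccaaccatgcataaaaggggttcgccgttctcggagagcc
IRF1, chr5:132490774-132490873, minus strand: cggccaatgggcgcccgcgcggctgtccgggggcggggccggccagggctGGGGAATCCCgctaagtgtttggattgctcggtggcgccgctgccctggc

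The 11 genes too dim to test were NFKB1, NFKB2, REL, IL6, TNF, CXCL1, CXCL3, CCL2, PTGS2, TNFAIP8 and CFLAR. CXCL3 and CCL2, a pair of chemokine genes, were null on all 30 arrays. TNF, the cytokine that gives the pathway its best known stimulus, was null on 27, TNFAIP8 on 26 and the subunit gene REL on 24. IL6, the gene of the cytokine interleukin-6, was null on every HCT116 and H1299 array. It was listed on 19 of the 20 RCC4 arrays, where it reached 1124.

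**Figure D1:**
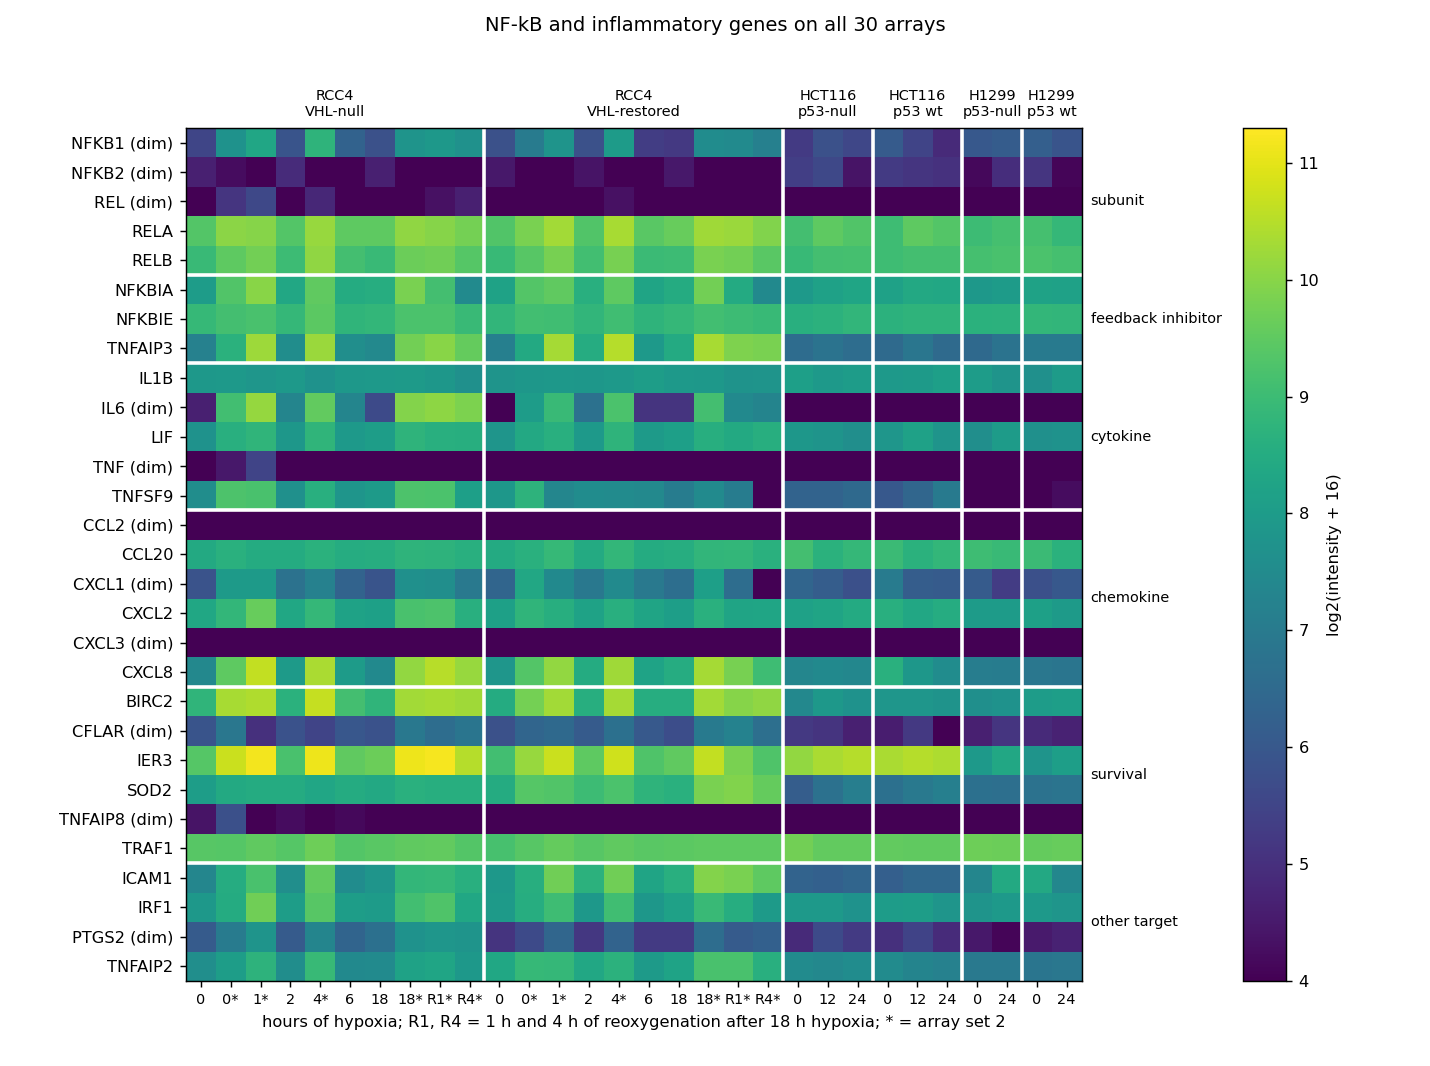
Values of the 29 genes on the 30 arrays, as log2(intensity + 16), with columns for arrays and rows for genes grouped by role; an asterisk marks arrays of set 2, and (dim) marks the 11 genes that were not tested. IL6, NFKB1, TNFAIP3, CXCL8 and BIRC2 are brighter on the RCC4 arrays of set 2 than on those of set 1, and IL6 is null on all HCT116 and H1299 arrays.

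The replicate arrays of RCC4 differed first of all by replicate number, which at 0 h and 18 h is also the array set. IL6 read 525 and 968 on the VHL-null replicate 2 arrays at 0 h and 18 h and 245 and 536 on the VHL-restored ones, against 9 and 34 and 0 and 18 on the replicate 1 arrays. CXCL8, which encodes the neutrophil chemokine interleukin-8, read 696 and 1102 in VHL-null and 631 and 1247 in VHL-restored cells in replicate 2, against 154 and 160 and 211 and 351 in replicate 1. TNFAIP3 read 390, 835, 327 and 1279 in the same order in replicate 2, against 131, 158, 125 and 340 in replicate 1. For IL6 and CXCL8, every replicate 2 array was above every replicate 1 array.

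With replicate number as a term beside genotype and time, limma gave a difference (replicate 2 minus replicate 1) of 1.41 for CXCL8 (SE 0.119, adjusted p = 2.77e-07). It was 1.13 for TNFAIP3 (SE 0.122, adjusted p = 2.4e-06) and 0.92 for BIRC2, the gene of the apoptosis inhibitor cIAP1 (SE 0.0805, adjusted p = 3.84e-07). In all, 7 of the 18 genes were higher in replicate 2 and 4 lower, where 73.8% of all genes passed, 1618 higher and 4001 lower. CXCL8 ranked 6 and TNFAIP3 23 from the highest of 7614 genes, and the median over all genes was -0.19. Without the filter on dim genes, IL6 had a difference of 3.60 and ranked 1 of 12690 genes (adjusted p = 0.000157). NFKB1 had 1.34 and CXCL1 1.24 in that fit, where 62.3% of genes passed. The IkB gene NFKBIE (-0.31), IL1B (-0.56), CCL20 (-0.39) and TRAF1 (-0.51) were lower relative to the median gene, after centring. Before centring NFKBIE read 537, 590, 525 and 528 in replicate 2, against 454, 444, 429 and 447 in replicate 1. CCL20 read 384, 410, 379 and 428 against 330, 355, 340 and 356. IL1B read 228, 237, 215 and 220 against 223, 224, 204 and 227. TRAF1 read 652, 712, 666 and 704 against 656, 680, 558 and 690. CCL2 and CXCL3, null on all arrays, had -0.6 in the unfiltered fit. Whether array, scaling or culture gives the difference cannot be told apart, and fewer cells of a kind and less RNA per cell cannot be told apart in bulk samples.

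After 18 h of hypoxia, VHL-restored RCC4 cells had more RNA for A20, for the adhesion molecule ICAM1 and for interleukin-8. These are the cells in which VHL can act on HIF, so the comparison gives the response to hypoxia with that step present. TNFAIP3 read 340 and 1279 at 18 h, against 125 and 327 at 0 h, in replicates 1 and 2. ICAM1, which binds leukocyte integrins, read 372 and 966 at 18 h and 222 and 369 at 0 h. CXCL8 read 351 and 1247 at 18 h and 211 and 631 at 0 h. Within each replicate the 18 h value was higher for all 3 genes, but replicate 1 at 18 h was not above replicate 2 at 0 h for CXCL8.

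Fitted without a block, none of the 18 genes was called in VHL-restored cells, where 0.0394% of all genes were called (3 genes). At an unadjusted p under 0.05 there were 4 of the 18 and 214 of all genes. Blocking on replicate number gave 501 called genes, or 6.58%, and 7 of the 18 were among them. TNFAIP3 rose 3.19-fold (log2 difference 1.67, SE 0.172, limma adjusted p = 8.64e-06), ICAM1 2.11-fold (1.08, SE 0.126, 4.16e-05) and CXCL8 1.84-fold (0.88, SE 0.168, 0.00378). IER3, an immediate early survival gene, rose by 0.49 (SE 0.101, adjusted p = 0.00572), the subunit gene RELA by 0.41 (SE 0.0991, 0.0172) and NFKBIA by 0.38 (SE 0.0986, 0.0246). TNFSF9, the gene of the costimulatory ligand 4-1BBL, fell by 0.96 (SE 0.162, adjusted p = 0.00128).

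The other genes called in VHL-restored cells showed their change within both replicates. IER3 read 718 and 1584 at 18 h and 527 and 1150 at 0 h. RELA read 761 and 1217 at 18 h, against 624 and 890 at 0 h, and NFKBIA read 342 and 838, against 281 and 629. A second, dimmer RELA probe set did not follow the one used (r = -0.019 over the 30 arrays). TNFSF9 read 118 and 165 at 18 h and 218 and 404 at 0 h, with both 18 h arrays below both 0 h arrays. Over the 18 genes the median difference was 0.321, with 16 above 0, beside a median of 0.046 and 65.4% above 0 over all tested genes. When each of the 8 arrays was left out of the blocked fit, TNFAIP3 lay between 1.42 and 1.92 and ICAM1 between 0.83 and 1.33. IER3 lay between 0.44 and 0.55, CXCL8 between 0.59 and 1.16 and TNFSF9 between -1.32 and -0.61. NFKBIA lay between 0.31 and 0.46 and RELA between 0.31 and 0.51. TNFAIP3, ICAM1, IER3 and TNFSF9 passed each time, CXCL8 was lost without either VHL-null 0 h array, and NFKBIA and RELA were lost in 5 of the 8. In the blocked fit of all 12690 genes, without the filter on dim genes, 0.181% of genes were called (0.15% higher) and none of the 18, with ICAM1 at an adjusted p of 0.102, TNFAIP3 at 0.103 and the other 5 at 0.160 to 0.284. The dim gene IL6 was called there, at 1.13 (SE 0.0948, adjusted p = 0.0326).

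In VHL-null RCC4 cells the 18 h differences of TNFAIP3 and CXCL8 were small in replicate 1 and larger in replicate 2, and that of TNFSF9 was the larger in replicate 1. NFKBIA read 356 and 898 at 18 h, against 248 and 628 at 0 h. TNFAIP3 read 158 and 835 at 18 h and 131 and 390 at 0 h, and CXCL8 read 160 and 1102 at 18 h and 154 and 696 at 0 h. TNFSF9 read 235 and 598 at 18 h and 175 and 592 at 0 h. Without a block limma called 0 of the 18 and 0% of all genes (51 genes at an unadjusted p under 0.05). With the block 37 genes or 0.486% were called, and of the 18 only NFKBIA, which rose 1.45-fold (log2 difference 0.54, SE 0.0986, adjusted p = 0.0182). NFKBIA was lost in 4 of the 8 fits that left out 1 array, over which its difference was 0.47 to 0.61. It was also lost without the filter, where 0% of all genes were called (adjusted p = 0.61). The median over the 18 genes was 0.187, with all 18 above 0, and over all tested genes 0.022, with 58.7% above 0.

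A test of the interaction between VHL and hypoxia compared the 18 h changes of the genotypes. TNFSF9 had a change larger by 1.20 on the log2 scale in VHL-null than in VHL-restored cells (SE 0.229, limma adjusted p = 0.0202, with the replicate block). By replicate, the differences were 0.36 and 0.12 in VHL-null cells and -0.77 and -1.16 in VHL-restored cells. It was the only member of the list called among 43 genes, or 0.565% of all. The call was lost without either VHL-null 0 h array, and over the 8 fits that left out 1 array the difference was 0.85 to 1.56. It was also lost in the blocked fit without the filter on dim genes (adjusted p = 0.997), where 0% of genes were called. Without a block 0 of the 18 and 0% of all genes were called (45 genes at an unadjusted p under 0.05). TNFAIP3 and ICAM1, called in VHL-restored but not in VHL-null cells, were not called in the interaction.

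**Figure D2:**
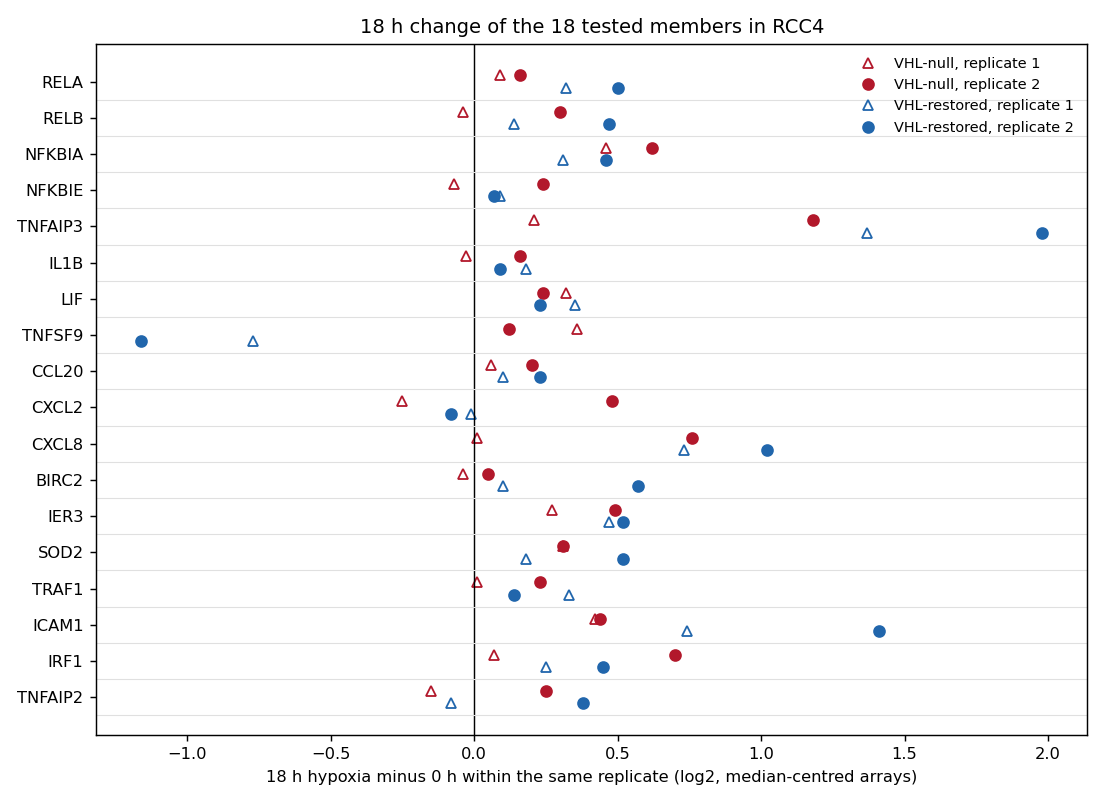
Change after 18 h of hypoxia (18 h minus 0 h, log2 of centred intensity + 16) within each replicate for the 18 tested genes, in VHL-null and VHL-restored RCC4 cells. TNFAIP3 and ICAM1 lie above 0 in both replicates of VHL-restored cells, and TNFSF9 lies above 0 in VHL-null and below 0 in VHL-restored cells.

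Among genes upstream in the pathway, taken from a list of 33 receptors, adaptors, kinases and regulators (19 tested), 1 rose at 18 h in VHL-restored cells under the block and 0 fell. This was TNIP1, which encodes a partner of A20 (0.78, SE 0.105, adjusted p = 0.00014). Of 36 other known targets (21 tested), 2 rose there, JUNB at 0.48 (SE 0.099, adjusted p = 0.00659) and SAA1 at 0.46 (SE 0.0997, 0.00809). In VHL-null cells 0 of the 19 regulators and 2 of the 21 targets rose, JUNB at 0.67 (SE 0.099, adjusted p = 0.00316) and EFNA1 at 0.94 (SE 0.166, 0.0147). None fell in either genotype. Of all 7614 tested genes, 501 were called in VHL-restored cells (282 higher) and 37 in VHL-null cells (21 higher). The median of the 19 regulators was -0.02 in VHL-restored and 0.02 in VHL-null cells, and that of the 21 targets 0.17 and 0.07.

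The times between 0 h and 18 h were followed in all 20 RCC4 arrays, with genotype and array set as terms, so the fit tests a change shared by both genotypes. Times are as labelled, and the 1 h and 4 h arrays include those that went against their labels in ENO2 in VHL-restored cells. The inhibitor gene TNFAIP3 led the list. On the set 2 arrays it read 390, 1194, 1168 and 835 at 0, 1, 4 and 18 h in VHL-null cells, and 327, 1261, 1419 and 1279 in VHL-restored cells. On the set 1 arrays it read 131, 175, 178 and 158 at 0, 2, 6 and 18 h in VHL-null cells, and 125, 354, 228 and 340 in VHL-restored cells. Within each set and genotype, every hypoxic array was above the 0 h array. The fitted difference from 0 h was 1.74 at 1 h (SE 0.252, limma adjusted p = 0.0014), 1.79 at 4 h (SE 0.252, 0.00056) and 1.18 at 18 h (SE 0.190, 0.00487). It was 1.09 at 2 h (adjusted p = 0.162) and 0.79 at 6 h (0.893), neither of which passed.

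ICAM1 followed a like course. In set 2 it read 348, 578, 728 and 440 at 0, 1, 4 and 18 h in VHL-null cells, and 369, 827, 819 and 966 in VHL-restored cells. In set 1 it read 147, 179, 171 and 207 at 0, 2, 6 and 18 h in VHL-null cells and 222, 397, 291 and 372 in VHL-restored cells. As with TNFAIP3, no hypoxic array fell below the 0 h array of its set and genotype. The fitted difference was 1.04 at 1 h (SE 0.202, adjusted p = 0.0113), 1.17 at 4 h (SE 0.202, 0.00207) and 0.75 at 18 h (SE 0.152, 0.0161).

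IRF1, a transcription factor gene of the interferon and NF-kB pathways, was high at 1 h and 4 h. In set 2 it read 347, 825, 666 and 530 at 0, 1, 4 and 18 h in VHL-null cells and 357, 512, 515 and 474 in VHL-restored cells. In set 1 every IRF1 value lay between 219 and 274. The difference was 0.96 at 1 h (SE 0.172, adjusted p = 0.00704) and 0.79 at 4 h (SE 0.172, 0.00893).

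The subunit genes bright enough to test, RELB and RELA, moved less. RELB, a subunit of the non-canonical pathway, read 697, 846, 1079 and 795 at 0, 1, 4 and 18 h in VHL-null cells of set 2, and 667, 880, 883 and 892 in VHL-restored cells. Its set 1 values at 0, 2, 6 and 18 h were 478, 497, 535 and 478 in VHL-null and 464, 531, 485 and 501 in VHL-restored cells. RELB rose by 0.45 at 1 h (SE 0.116, adjusted p = 0.041) and by 0.61 at 4 h (SE 0.116, 0.00392). RELA read 1034, 983, 1150 and 1068 in VHL-null and 890, 1222, 1284 and 1217 in VHL-restored cells in set 2, and its VHL-null 1 h array was below the 0 h array. In set 1 RELA read 641, 638, 696 and 699 in VHL-null and 624, 622, 669 and 761 in VHL-restored cells. It rose by 0.49 at 4 h (SE 0.116, adjusted p = 0.0147). The second RELA probe set, at 397 to 526 over all arrays, did not follow the brighter probe set, a limit on every RELA difference given here.

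NFKBIA and LIF were the other genes called at more than 1 time. NFKBIA read 628, 1019, 719 and 898 in set 2 in VHL-null and 629, 717, 709 and 838 in VHL-restored cells at 0, 1, 4 and 18 h. In set 1 it read 248, 318, 345 and 356 at 0, 2, 6 and 18 h in VHL-null and 281, 374, 292 and 342 in VHL-restored cells. NFKBIA rose by 0.60 at 1 h (SE 0.146, adjusted p = 0.0356) and by 0.46 at 18 h (SE 0.110, 0.0338). LIF, a cytokine gene of the interleukin-6 family, read 373, 424, 420 and 411 in set 2 in VHL-null and 323, 371, 414 and 366 in VHL-restored cells. In set 1 LIF read 194, 216, 224 and 252 in VHL-null and 208, 224, 237 and 263 in VHL-restored cells, so that the 0 h array was the lowest in each set and genotype. It rose by 0.41, 0.46 and 0.29 at 1, 4 and 18 h (adjusted p = 0.0114, 0.0023 and 0.0197).

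At 4 h the survival genes BIRC2 and TRAF1 were called as well. BIRC2 read 1275, 1357, 1611 and 1226 at 0, 1, 4 and 18 h in set 2 in VHL-null cells and 862, 1244, 1267 and 1234 in VHL-restored cells. In set 1 BIRC2 read 424, 391, 540 and 423 at 0, 2, 6 and 18 h in VHL-null and 343, 367, 357 and 360 in VHL-restored cells. Its difference at 4 h was 0.55 (SE 0.127, adjusted p = 0.0116). TRAF1, a signalling adaptor and partner of cIAP1, read 652, 720, 810 and 712 in VHL-null and 666, 741, 717 and 704 in VHL-restored cells in set 2. In set 1 TRAF1 read 656, 653, 636 and 680 in VHL-null and 558, 666, 681 and 690 in VHL-restored cells. The difference at 4 h was 0.39 (SE 0.105, adjusted p = 0.0285). CXCL8 had 1.05 at 1 h (SE 0.313, adjusted p = 0.0808) and 0.97 at 4 h (0.0577), on set 2 arrays that read 1583 and 1323 in VHL-null and 1098 and 1219 in VHL-restored cells.

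In counts, 6 of the 18 genes rose at 1 h, where 3.61% of all genes were called (2.43% higher, 1.18% lower). At 2 h 0 of the 18 were called (0.144% of all, 0% higher and 0.144% lower) and at 6 h 0 (0%). At 4 h 8 rose (10.6% of all, 7.18% higher and 3.45% lower), and at 18 h 4 rose (2.96% of all, 1.77% higher and 1.18% lower), and none of the 18 fell at any time. At 2 h and 6 h, 483 and 305 of all genes, and 5 and 1 of the 18, had an unadjusted p under 0.05. The median over the 18 genes was 0.416, 0.129, 0.428, 0.155 and 0.242 at 1, 2, 4, 6 and 18 h, beside 0.058, 0.033, 0.052, 0.017 and 0.033 over all tested genes. Without the centring of arrays the median over all tested genes was -0.125, -0.11 and -0.009 at 1, 4 and 18 h. Fewer of the 18 were then called at 1 h and at 18 h, as counted in the last section. The 1 h and 4 h arrays all lie in set 2 and the 2 h and 6 h arrays in set 1, so no time between 0 h and 18 h was measured in both sets. Within set 2 alone 5 of the 18 rose at 1 h (2.44%), 9 at 4 h (9.47%) and 1 at 18 h (0.0788%), and within set 1 alone 0 at 2 h (0.0525%) and at 6 h (0%) and 2 at 18 h (2.15%). CXCL8 was called within set 2 at 1 h (1.18, SE 0.235, adjusted p = 0.0315) and at 4 h (1.11, SE 0.235, 0.0196).

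The 18 h calls of the 20-array fit were the same 4 genes without the 1 h and 4 h arrays. Without VHL-restored replicate 2 at 0 h, 2 of the 18 were called at 1 h, TNFAIP3 and IRF1, 5 at 4 h and 1 at 18 h. At 18 h 1 was also called without VHL-restored replicate 1 at 0 h, and 2 without either VHL-restored 18 h array or VHL-null replicate 2 at 18 h. These leave-out counts have no share of all genes beside them and are not read as results about the list. NFKBIA was lost at 18 h whichever of the 8 arrays was left out. Without the filter on dim genes, NFKBIA and RELB were lost at 1 h and ICAM1 and NFKBIA at 18 h.

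**Figure D3:**
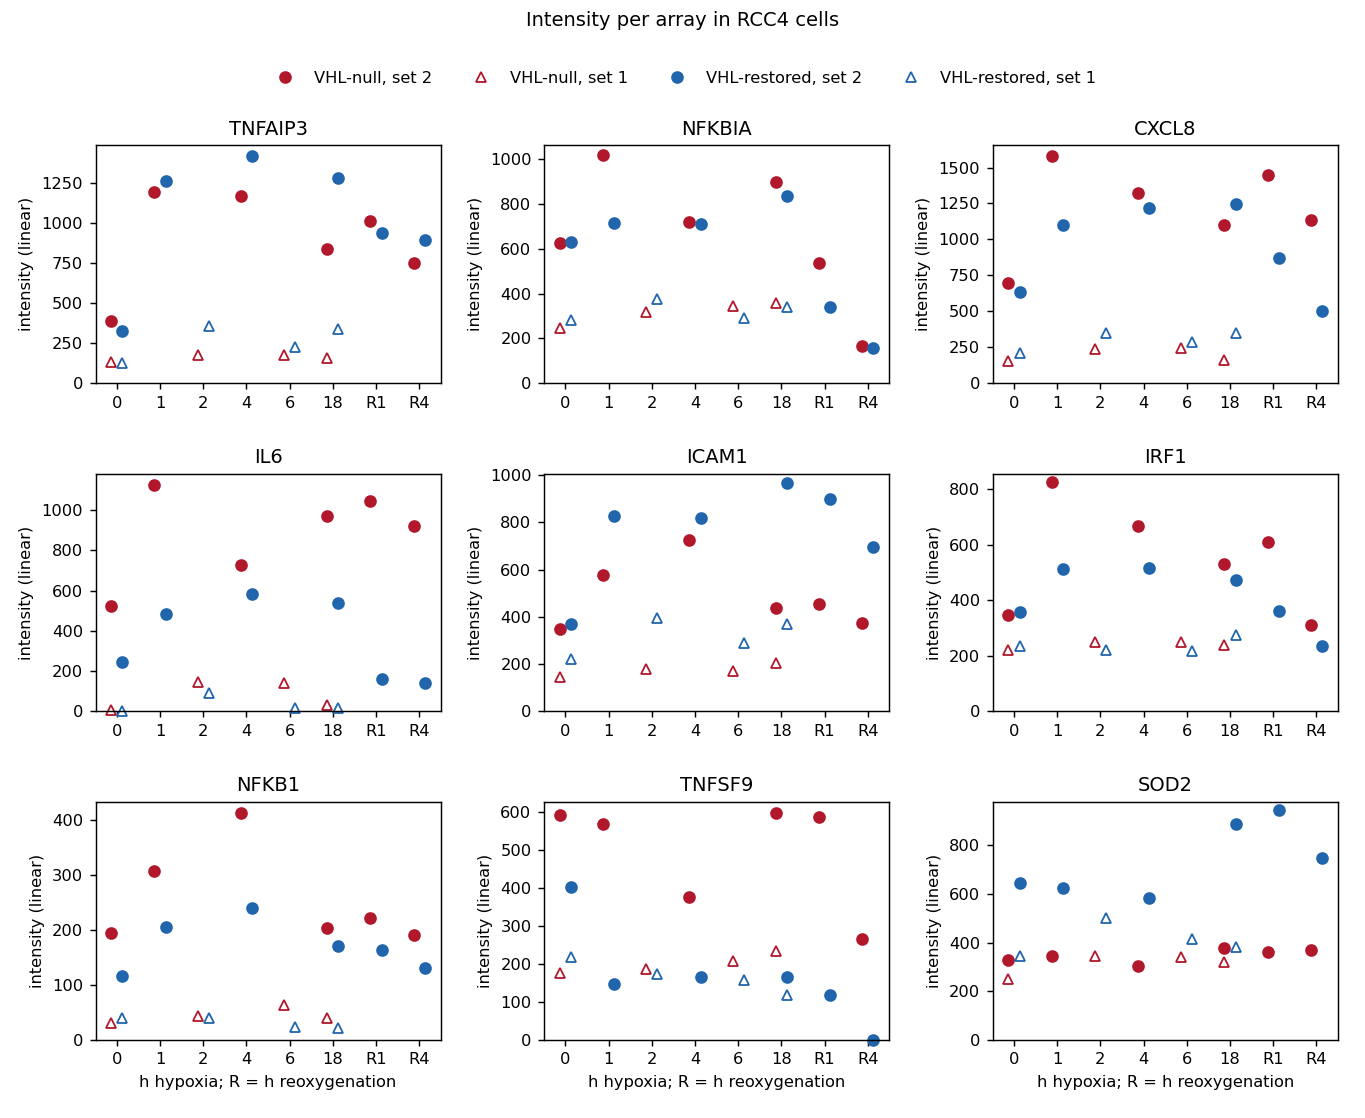
Intensity (linear) of 9 genes on the 20 RCC4 arrays, in order of hypoxia and reoxygenation time with even spacing; red is VHL-null and blue VHL-restored, filled circles are set 2 arrays and open triangles set 1 arrays. TNFAIP3, CXCL8 and IL6 are high at 1 h and 4 h, which are set 2 arrays, and low at 2 h and 6 h, which are set 1 arrays. NFKBIA is below its 0 h replicate 2 level at 1 h of reoxygenation and further below it at 4 h.

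Of the dim genes, NFKB1 and PTGS2 were called in the time course. NFKB1, which encodes the p105 precursor of the p50 subunit, read 194, 306, 413 and 203 at 0, 1, 4 and 18 h in VHL-null and 116, 205, 239 and 170 in VHL-restored cells in set 2. In set 1 it read 30, 44, 63 and 40 at 0, 2, 6 and 18 h in VHL-null and 40, 40, 24 and 21 in VHL-restored cells. Its set 1 values at 6 h and 18 h in VHL-restored cells were below the 0 h value. In the fit of all 12690 genes NFKB1 rose by 1.04 at 4 h (SE 0.223, adjusted p = 0.0168). PTGS2, the gene of the prostaglandin enzyme cyclooxygenase-2, read 115, 203, 145 and 197 in set 2 in VHL-null and 34, 69, 64 and 81 in VHL-restored cells. In set 1 PTGS2 read 53, 52, 66 and 87 in VHL-null and 18, 20, 22 and 22 in VHL-restored cells. It rose by 0.82 at 1 h (SE 0.168, adjusted p = 0.0276) and by 0.64 at 18 h (SE 0.127, 0.0455) in that fit. Of all 12690 genes, 380, 1083 and 86 were called there at 1, 4 and 18 h.

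The regulators and other targets moved in few members over the same times. Of the 19 tested regulators, 1 rose and 1 fell at 1 h: TNIP1 at 0.60 and the IkB gene NFKBIB at -0.44. Of the 21 tested targets, 2 rose and 0 fell at 1 h, JUNB at 0.86 and EFNA1 at 1.54. At 4 h, 2 regulators rose, TNIP2 at 0.59 and TNIP1 at 0.71, and 1 fell, NFKBIZ, the gene of a nuclear IkB protein, at -0.98. The 4 targets that rose at 4 h were NINJ1 at 0.71, the death receptor gene FAS at 1.13, JUNB at 0.78 and CXCL11 at 0.35, and 0 fell. At 18 h TNIP1 rose by 0.52, JUNB rose by 0.58 and the kinase gene MAP3K7 had -0.35, the calls among both lists. Of all 7614 tested genes, 275, 810 and 225 were called at 1, 4 and 18 h.

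On return to oxygen, NFKBIA RNA fell in both genotypes. NFKBIA read 535 at 1 h and 164 at 4 h of reoxygenation in VHL-null cells and 339 and 159 in VHL-restored cells. At 18 h of hypoxia it had read 356 and 898 in VHL-null and 342 and 838 in VHL-restored cells. Both 4 h arrays were below every other RCC4 array. The difference at 4 h of reoxygenation from 18 h of hypoxia was -2.05, a fall of 4.15-fold (SE 0.146, limma adjusted p = 1.76e-06), and from 1 h of reoxygenation it was -1.17 (SE 0.156, adjusted p = 0.00168). At 1 h it was -0.88 (SE 0.146, adjusted p = 0.129), which did not pass. Within set 2, which holds every reoxygenation array and 1 of the 2 replicates at 18 h, the difference at 4 h was -2.09 (SE 0.168, adjusted p = 0.000627).

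NFKBIA was the only 1 of the 18 called at 4 h against 18 h, where 2.63% of all genes passed (0.946% higher, 1.68% lower), and at 4 h against 1 h, where 0.735% passed (0.131% higher, 0.604% lower). At 1 h against 18 h, 0 of the 18 and 0% of all genes passed (441 genes at an unadjusted p under 0.05, 1 of them of the 18). Without the centring of arrays, 7 of the 18 fell and 0 rose at 4 h against 18 h. That count has no share of all genes beside it and is not read as a result about the list. The median over all genes moved to -0.17 without centring, against 0.073 with it. Relative to those medians the difference of NFKBIA exceeded that of the typical gene under either scaling. The same calls were made without the 1 h and 4 h hypoxia arrays.

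Other members of the list were low on some arrays at 4 h of reoxygenation but did not pass. TNFSF9 read 265 in VHL-null cells and was null in VHL-restored cells at 4 h, against 587 and 118 at 1 h, and its difference from 18 h was -2.17 (SE 0.614, adjusted p = 0.0714). IER3 read 2320 and 1412 at 1 h and 4 h in VHL-null and 889 and 604 in VHL-restored cells, with a difference of -0.74 at 4 h (SE 0.219, adjusted p = 0.0858). IRF1 read 610 and 311 in VHL-null and 360 and 237 in VHL-restored cells, with -0.52 (SE 0.172, adjusted p = 0.129). CXCL8 read 1446 and 1135 in VHL-null and 869 and 503 in VHL-restored cells, and IL6 read 1044 and 919 in VHL-null and 160 and 140 in VHL-restored cells. For IL6 the VHL-restored arrays at 1 h and 4 h were below the 536 of replicate 2 at 18 h, while the VHL-null arrays were near its 968.

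TNFAIP3, ICAM1 and LIF passed as higher than untreated cells at 4 h of reoxygenation, but without the centring of arrays only TNFAIP3 did. TNFAIP3 read 1009 and 751 at 1 h and 4 h of reoxygenation in VHL-null and 935 and 896 in VHL-restored cells, against 131 and 390 and 125 and 327 in untreated cells. It was above untreated cells by 1.37 at 1 h (SE 0.252, adjusted p = 0.0245), the only 1 of the 18 called there (0.368% of genes, 0.289% higher and 0.0788% lower), and by 1.27 at 4 h (SE 0.252, 0.0068). The 1 h call was lost without VHL-restored replicate 1 at 18 h, VHL-null replicate 2 at 0 h or VHL-restored replicate 2 at 0 h, and without the filter on dim genes. ICAM1 read 453 and 376 in VHL-null and 899 and 697 in VHL-restored cells, and at 4 h was above untreated cells by 0.72 (SE 0.202, adjusted p = 0.0353). LIF read 373 and 365 in VHL-null and 330 and 365 in VHL-restored cells, with 0.40 at 4 h (SE 0.0808, adjusted p = 0.00777). In VHL-null cells of set 2 the 376 of ICAM1 at 4 h stood beside an untreated 348, and the 365 of LIF was below its untreated 373, while in VHL-restored cells LIF was at 365 beside 323.

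Against untreated cells, 3 of the 18 were higher at 4 h and 2 lower, where 11% of all genes passed (6.99% higher, 3.97% lower). NFKBIA had -1.59 (SE 0.146, adjusted p = 1.7e-05) and TNFSF9 -2.53 (SE 0.614, 0.0191). With null entries left missing, TNFSF9 had -1.02 (adjusted p = 0.153) and was not called, as its VHL-restored 4 h value is null. Without VHL-restored replicate 2 at 0 h 3 of the 18 were called, and ICAM1 and TNFSF9 were not among them. No share of all genes stands beside that count. Without the centring of arrays 1 of the 18 was higher and 2 lower, where the median over all genes was -0.181 against 0.104 with centring. CXCL1, a dim chemokine gene, read 108 in VHL-null cells and 0 in VHL-restored cells at 4 h, against 42 and 235 and 67 and 316 in untreated cells. The VHL-restored 4 h array is the one with 40.4% null entries, and the untreated VHL-null replicate 2 array the one with 18.4%.

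**Figure D4:**
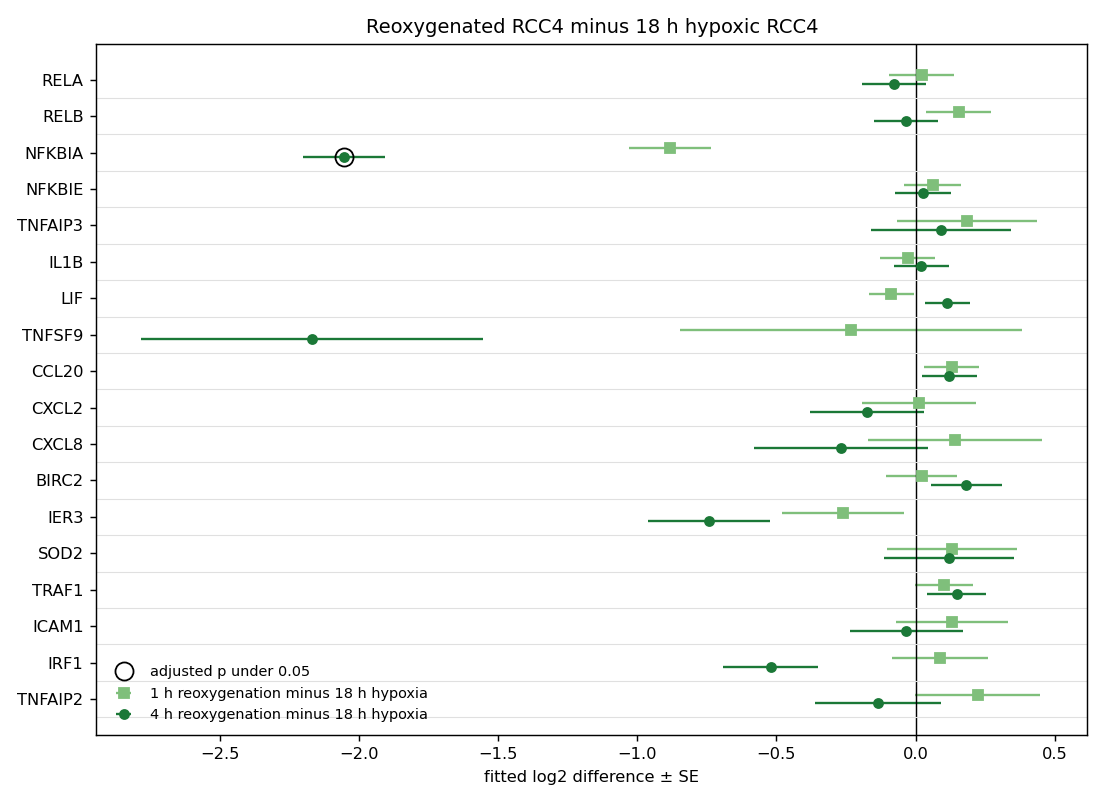
Fitted log2 difference (with SE) of the 18 tested genes at 1 h and 4 h of reoxygenation minus 18 h of hypoxia in RCC4; a circle marks an adjusted p under 0.05. NFKBIA at 4 h, at -2.05, is the only circled gene.

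Of the 19 regulators, 1 fell and 0 rose at 4 h of reoxygenation against 18 h, NFKBIZ at -1.07, and of the 21 other targets 0 were called. Against untreated cells NFKBIZ had -1.38 at 1 h and -1.50 at 4 h, TNIP1 0.56 at 4 h and CXCL11 0.30 at 4 h, which were all the calls in both lists. Of all 7614 tested genes, 200 were called at 4 h against 18 h. Against untreated cells 28 were called at 1 h and 834 at 4 h.

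Over the 8 states of hypoxia and reoxygenation, VHL-null cells had less RNA for ICAM1 and SOD2 and more for TNFSF9. ICAM1 was lower in VHL-null cells, at 147, 362 and 728 (lowest, median and highest of 10 arrays), against 222, 547 and 966 in VHL-restored cells. SOD2, the mitochondrial superoxide dismutase, was at 249, 343.5 and 379 in VHL-null and 345, 603 and 944 in VHL-restored cells. TNFSF9 was higher, at 175, 320.5 and 598 in VHL-null, against 0, 161 and 404 in VHL-restored cells. The ranges overlapped for all 3, but after centring, ICAM1 and SOD2 were lower in VHL-null cells on all 10 arrays matched by state and replicate. TNFSF9 was higher on 9 of the 10. The share of all genes with such counts was not taken.

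Over all states, 4 of the 18 were higher and 6 lower in VHL-null cells, where 34.2% of all genes passed, 955 higher and 1646 lower. SOD2 had a difference of -0.83 (SE 0.112, limma adjusted p = 3.4e-05), ICAM1 -0.75 (SE 0.0963, 2.2e-05) and TNFSF9 1.20 (SE 0.294, 0.00537). TNFAIP2, a gene induced by TNF, was at 160, 237 and 468 in VHL-null and 238, 384.5 and 579 in VHL-restored cells, with -0.69 (SE 0.108, adjusted p = 0.000143). TNFAIP3 was at 131, 570.5 and 1194 in VHL-null and 125, 625 and 1419 in VHL-restored cells, with -0.38 (SE 0.120, adjusted p = 0.0238). IER3 was at 570, 1546 and 2320 in VHL-null and 527, 803.5 and 1719 in VHL-restored cells, with 0.41 (SE 0.105, adjusted p = 0.00711).

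The remaining called genes differed by small amounts. The chemokine gene CXCL2 was at 266, 405.5 and 764 in VHL-null and 258, 294.5 and 421 in VHL-restored cells (0.29, SE 0.098, adjusted p = 0.0338). BIRC2 was at 391, 1218 and 1611 in VHL-null and 343, 929.5 and 1267 in VHL-restored cells (0.20, SE 0.0605, adjusted p = 0.0163). RELA was at 638, 919.5 and 1150 in VHL-null and 622, 921 and 1284 in VHL-restored cells (-0.15, SE 0.0555, adjusted p = 0.0473). CCL20, a chemokine gene, was at 330, 365.5 and 410 in VHL-null and 336, 382 and 462 in VHL-restored cells (-0.14, SE 0.0472, adjusted p = 0.0304). For RELA and CCL20 the difference was not lower but 0.01 within set 1. Without the filter on dim genes, CXCL2, RELA, CCL20 and TNFAIP3 were not called.

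ICAM1, SOD2 and TNFAIP2 were the genes called with the same sign in both array sets. Within set 1, where 14.7% of genes passed, 1 of the 18 was higher and 4 lower, and within set 2, where 45.7% passed, 3 were higher and 6 lower. SOD2 had -0.36 within set 1 (SE 0.0565, adjusted p = 0.00381) and -1.15 within set 2 (SE 0.0789, 6e-06). TNFSF9 was called within set 2 only, at 1.81 (SE 0.342, adjusted p = 0.00255), and the difference between the sets was not tested. CXCL8 was lower within set 1 (-0.54, SE 0.120, adjusted p = 0.0194) and had 0.29 within set 2. Without the 1 h and 4 h arrays 2 of the 18 were higher and 4 lower (23.7% of genes), and without VHL-restored replicate 2 at 18 h 6 were called. No share of all genes stands beside the last count.

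Among the dim genes, IL6 and PTGS2 were higher in VHL-null cells on 10 of the 10 matched arrays and NFKB1 on 9, again with no share of all genes counted. IL6 was at 9, 625 and 1124 in VHL-null and 0, 150 and 582 in VHL-restored cells. In the fit of all 12690 genes, where 22.8% passed, PTGS2 had 1.20 (SE 0.0803, adjusted p = 1e-06), IL6 1.19 (SE 0.227, 0.00266) and NFKB1 0.38 (SE 0.107, 0.022).

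**Figure D5:**
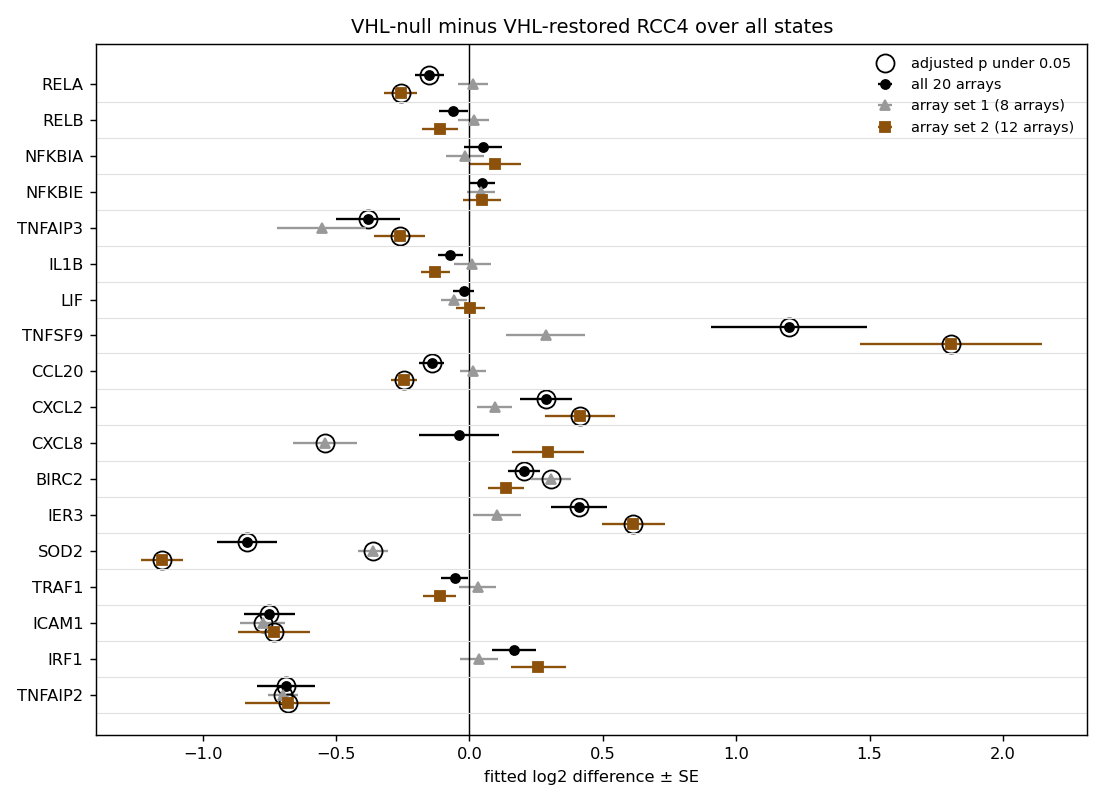
Fitted log2 difference between VHL-null and VHL-restored RCC4 (with SE) for the 18 tested genes, over all 20 arrays and within set 1 and set 2. ICAM1, SOD2 and TNFAIP2 lie below 0 in both sets, and CXCL8 lies below 0 in set 1 and above 0 in set 2.

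At 0 h and at 18 h alone, with 2 arrays per group, 0 of the 18 passed without a block (0.118% of all genes at 0 h, 0.105% higher and 0.0131% lower, and 0.0263% at 18 h). With the replicate block 3 were called at 0 h (7.51%), IER3 at 0.35, SOD2 at -0.75 and TNFAIP2 at -0.85 (adjusted p = 0.0416, 0.0185 and 0.000508). At 18 h 6 were called (7.59%). TNFSF9 was higher in VHL-null cells by 1.27 (SE 0.162, adjusted p = 9.5e-05). ICAM1 had -1.02 (SE 0.126, adjusted p = 6.3e-05), TNFAIP2 -0.95 (SE 0.133, 0.000225), TNFAIP3 -0.89 (SE 0.172, 0.00346), SOD2 -0.79 (SE 0.186, 0.0138) and CXCL8 -0.69 (SE 0.168, 0.0182). When 1 array was left out of the blocked fit, IER3 at 0 h lay between 0.3 and 0.41 and was lost in 6 of the 8 fits. SOD2 at 0 h lay between -1.04 and -0.45 and was lost in 3, and TNFAIP2 between -1.1 and -0.61 and lost in 1. At 18 h ICAM1, TNFAIP2 and TNFSF9 were called each time, at -1.27 to -0.77, -1.21 to -0.69 and 0.91 to 1.62. At 18 h SOD2 lay between -1.19 and -0.38 and was lost in 4 of the 8 fits, CXCL8 between -1.12 and -0.25 and lost in 3, and TNFAIP3 between -1.26 and -0.51 and lost in 2. VHL-null replicate 1 or 2 at 0 h lost all 3 genes, VHL-null replicate 1 at 18 h lost CXCL8, and replicate 2 at 18 h of either genotype lost SOD2. Without the filter on dim genes the blocked fit called none of the 18 at 0 h (0.646% of genes) or at 18 h (0.567%), and IL6 was called at 0 h, at 0.79 (SE 0.0948, adjusted p = 0.0447).

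The arrays behind these 2 comparisons were the following. SOD2 read 249 and 328 in VHL-null and 345 and 643 in VHL-restored cells at 0 h, and 320 and 379 against 382 and 889 at 18 h. TNFAIP2 read 178 and 252 in VHL-null and 312 and 462 in VHL-restored cells at 0 h, and 163 and 280 against 287 and 579 at 18 h. IER3 read 643 and 1680 in VHL-null and 527 and 1150 in VHL-restored cells at 0 h. SOD2 and TNFAIP2 did not overlap between the genotypes at either time, whereas IER3 at 0 h did. How many of all genes did not overlap was not counted.

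Outside the list, 1 of the 19 regulators was higher and 4 lower in VHL-null cells over all states, led by MAP3K7 at -0.31, TNIP1 at 0.33, TRADD at -0.32 and LTBR at -0.20. Of all 7614 tested genes 2601 passed there, 955 higher and 1646 lower. Of the 21 other targets 2 were higher and 7 lower, led by the complement gene C3 at -2.67 (SE 0.243, adjusted p = 6.15e-07) and PLAU, the gene of urokinase, at 1.18 (SE 0.115, 1.28e-06). The cytokine gene LTB had -0.34 and the adhesion molecule gene VCAM1 -0.67.

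In HCT116 colon cells no gene of the list passed the test after hypoxia. SOD2 came nearest, at 55, 89 and 123 at 0, 12 and 24 h in p53-null and 87, 107 and 127 in p53-wild-type cells. Its difference at 24 h was 0.73 (SE 0.123, limma adjusted p = 0.0508), with both 24 h arrays above both 0 h arrays. RELA read 709 and 709 at 12 h, against 537 and 511 at 0 h, with a difference of 0.45 (SE 0.0724, adjusted p = 0.0954). At 12 h against 0 h 0 of the 18 and 0.735% of all genes passed, at 24 h against 0 h 0 and 3.81%, and at 24 h against 12 h 0 and 0%. At an unadjusted p under 0.05 there were 5, 5 and 2 of the 18 at these comparisons and 1168, 1725 and 827 of all genes.

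TNFAIP3 and CXCL8, which had the largest 1 h differences of the 18 in RCC4, were not measured at 1 h to 6 h in HCT116. TNFAIP3 read 79, 95 and 81 at 0, 12 and 24 h in p53-null and 76, 101 and 76 in p53-wild-type cells. CXCL8 read 146, 160 and 150 in p53-null and 383, 219 and 171 in p53-wild-type cells. In H1299, where hypoxia genes went against the labels of the p53-wild-type libraries, TNFAIP3 read 95 at 24 h and 75 at 0 h in p53-null cells. In the libraries labelled p53-wild-type it read 111 at 24 h and 113 at 0 h.

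ICAM1 in H1299 moved with the hypoxia genes. It read 328 at 24 h and 147 at 0 h in p53-null cells, and 152 in the library labelled p53-wild-type at 24 h and 321 in that labelled 0 h. These are single arrays with no replicate. Over H1299 and HCT116 together, 24 h against 0 h gave 0 of the 18 and 0% of all genes (427 genes at an unadjusted p under 0.05). Without the H1299 p53-wild-type arrays it gave 0 of the 18 and 0.0919%.

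Late hypoxia over 6 backgrounds, 18 h in RCC4 and 24 h in the other lines, gave 0 of the 18 and 0% of all genes (925 genes at an unadjusted p under 0.05). Without the H1299 p53-wild-type arrays it gave 0 of the 18 and 0.0657%. IER3 had 0.34 (SE 0.0617, adjusted p = 0.395) with all backgrounds. The late change in RCC4 minus that in HCT116 was 1.16 for TNFAIP3 (SE 0.326, adjusted p = 0.432) and 1.15 for CXCL8 (SE 0.373, 0.467), and neither passed. The late change was not called to differ for any of the 18, in RCC4 against HCT116 or against H1299, with 0% of all genes in both (742 and 228 genes at an unadjusted p under 0.05, 5 and 4 of them of the 18). Without the H1299 p53-wild-type arrays 0.0263% passed against HCT116 and 0% against H1299, with 0 of the 18 in both.

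The p53 genotype gave no call either. NFKBIA was nearest in p, at 232, 274 and 298 at 0, 12 and 24 h in p53-null HCT116 cells and 272, 324 and 316 in p53-wild-type cells. In H1299 NFKBIA read 222 and 243 at 0 h and 24 h in p53-null cells, and 280 and 274 in the libraries labelled p53-wild-type. It was lower in p53-null cells in 5 of 5 pairs, with a difference of -0.20 (SE 0.0465, adjusted p = 0.721). Over the 5 line and time pairs 0 of the 18 and 0% of all genes passed (526 genes at an unadjusted p under 0.05, 4 of them of the 18). Without the H1299 p53-wild-type arrays the share was 0.0263%, again with 0 of the 18.

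In oxygen the lines differed widely in the levels of these genes, compared on the 6 replicate 1 arrays at 0 h of set 1, with the 2 genotypes of a line as replicates. SOD2 read 249 and 345 in RCC4, against 55 and 87 in HCT116 and 87 and 91 in H1299. TNFSF9 read 175 and 218 in RCC4, against 64 and 48 in HCT116, and 0 on both H1299 arrays. BIRC2 read 424 and 343 in RCC4, against 154 and 212 in HCT116 and 182 and 246 in H1299. In these 3 genes both RCC4 arrays were above all arrays of the other lines, and how many of all genes were so was not counted.

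RCC4 was higher than HCT116 in 4 of the 18 genes and lower in 3, where 35.9% of all genes passed, 1089 higher and 1642 lower. SOD2 had a difference of 1.69 (SE 0.204, adjusted p = 0.00216), TNFSF9 1.40 (SE 0.145, 0.0013), ICAM1 1.20 (SE 0.345, 0.0395) and BIRC2 0.85 (SE 0.209, 0.0233). IER3 had -1.19 (SE 0.147, adjusted p = 0.00234), CCL20 -0.76 (SE 0.0927, 0.00227) and TRAF1 -0.52 (SE 0.135, 0.0294). The IER3 values were 643 and 527 in RCC4 and 1105 and 1308 in HCT116. CCL20 read 330 and 340 in RCC4 and 539 and 492 in HCT116, and TRAF1 read 656 and 558 in RCC4 and 835 and 725 in HCT116. ICAM1 read 147 and 222 in RCC4 and 64 and 58 in HCT116. These groups did not overlap in any of the 7 genes. That describes genes already called, and the share of all genes that separate so was not counted. Without the filter on dim genes ICAM1, BIRC2 and TRAF1 were not called.

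Against H1299, RCC4 was higher in 4 of the 18 genes and lower in 3, where 31.5% of all genes passed. TNFSF9 was among them (adjusted p = 0.000149), with no fold given because both H1299 arrays read 0. SOD2 had 1.42 (SE 0.204, 0.00417), IER3 1.24 (SE 0.147, 0.00231) and TNFAIP2 0.95 (SE 0.220, 0.0222). The IER3 values in H1299 were 226 and 202, and those of TNFAIP2 were 178 and 312 in RCC4 and 108 and 98 in H1299. CCL20 had -0.68 (adjusted p = 0.00353), TRAF1 -0.49 (0.0383) and RELB -0.40 (0.0224). The H1299 arrays read 503 and 488 for CCL20, 812 and 742 for TRAF1 and 551 and 585 for RELB, which read 478 and 464 in RCC4. Without the library labelled H1299 p53-wild-type at 0 h, 5 of the 18 were higher, BIRC2, IER3, SOD2, TNFAIP3 and TNFSF9, and 1 was lower, CCL20 (22.5% of genes). Without the filter on dim genes TNFAIP2 and TRAF1 were not called.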

How the data were processed

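RNA of 30 samples was measured on 1-colour custom Affymetrix arrays. The authors deposited 1 linear intensity per probe set and array, in whole numbers with null entries. How probes were summarised and scaled, and what null means, is not given in the sources used here. No columns were left unused. Of 35356 probe sets, 16905 carried 1 gene symbol in the platform annotation, 573 several and 17878 none. The brightest single-symbol probe set stood for each of 12690 genes.

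Null was set to 0, values were taken as log2(intensity + 16), and each array was centred on its median gene. The upper 60% of genes by mean value (7614) were fitted with limma 3.58.1 in R 4.3.3 and adjusted by Benjamini-Hochberg over all of them, two-sided, with a threshold of 0.05. The scripts were tested on simulated data. The fit of 18 h hypoxia and VHL used the 8 replicated RCC4 arrays with no block. The time course, reoxygenation and VHL over all states used the 20 RCC4 arrays with array set and genotype or state as terms. The other lines were fitted with genotypes as replicates. The labels do not say that replicates were separate cultures, so a p-value covers the spread of these arrays alone, which may be technical.

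Same-numbered replicates deviated together from their group means (r across genes 0.794 to 0.916 over 6 pairs of groups), so the number was taken to pair samples and blocked values are printed. At 0 h and 18 h the number equals the array set.

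Members that passed in any comparison are given with their values, others by ranges and counts, and up to 4 called genes are named from each of 2 further pathway lists. The members and lists were chosen with earlier results of these data known. Alternatives were the pseudocount (64), no centring, quantile normalization, no filter, null as missing, the mean of probe sets, no array set term, the block and leaving out each replicate. Fits within an array set, the block or a single set without the filter, the leave-outs within the block, and fits without the 1 h and 4 h or the H1299 p53-wild-type arrays were chosen after seeing the data. Promoter sequences are from RefSeq (GRCh38.p14).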

Additional observations from a re-analysis of the deposited data

Results flagged for a closer look

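The change of TNFSF9 after 18 h of hypoxia differed between the VHL genotypes in a test of the interaction, by 1.20 on the log2 scale with the replicate block (limma adjusted p = 0.0202). The call was lost when dim genes were fitted too (adjusted p = 0.997). TNFSF9 read 235 and 598 at 18 h and 175 and 592 at 0 h in VHL-null cells, and 118 and 165 at 18 h and 218 and 404 at 0 h in VHL-restored cells. Groups of 2 arrays were too small to be tested for single arrays that stand apart.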

How the results depend on the processing

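The counts that follow are of the 18 tested genes, or of the 29 genes on the array where no filter was used, and the cause of each shift was not tested. A count with no number of all genes beside it shows how the calls move with the setting. It is not read as a result about the list. With the replicate block, 7 were called at 18 h in VHL-restored cells, 1 in VHL-null cells, 1 in the interaction, and 3 at 0 h and 6 at 18 h between genotypes. Without the filter as well, 1 was called in VHL-restored cells and 1 at 0 h, IL6 each time, and 0 of the 18 in any of these comparisons. Leaving out 1 array, with or without the block, gave 0 to 10 in VHL-restored cells, 0 to 6 in VHL-null cells, 0 to 3 in the interaction, and 0 to 5 at 0 h and 0 to 6 at 18 h between genotypes. In the time course it gave 2 to 8 at 1 h, 0 to 1 at 2 h, 5 to 9 at 4 h and 1 to 3 at 18 h. It gave 0 to 2 and 3 to 6 at 1 h and 4 h of reoxygenation against untreated cells, and 6 to 10 for VHL over all states. Without centring the counts were 3 at 1 h, 2 at 18 h, 7 at 4 h of reoxygenation against 18 h, and 0 and 3 at 1 h and 4 h of reoxygenation against untreated cells. Quantile normalization gave 0 at 1 h of reoxygenation against untreated cells. Without the filter 4 were called at 4 h of reoxygenation against 18 h (1 of the 18), and 0 and 10 at 1 h and 4 h against untreated cells (0 and 6 of the 18). With the mean of probe sets the counts were 11 at 1 h, 2 at 4 h of reoxygenation against 18 h, and 2 and 9 at 1 h and 4 h against untreated cells. Without the array set term 0 were called at 18 h, 0 at 4 h against 1 h of reoxygenation, 0 at 1 h against untreated cells and 4 for VHL over all states. Of all 7614 tested genes, 13, 2, 2 and 1151 were called there. Within set 1, 2 were called at 18 h and 5 for VHL, and with no filter 0 and 4 (3 of the 18). Within set 2, 1 was called at 18 h, and with no filter 1 at 1 h, 3 at 4 h (2 of the 18), 1 at 18 h, 0 at 4 h against 1 h of reoxygenation and 8 at 4 h against untreated cells (5 of the 18). CXCL3 and CCL2, null on all arrays, are among the unfiltered calls at 4 h of reoxygenation in the fit of all 20 arrays, and against untreated cells within set 2, through the centring alone. Without the 1 h and 4 h arrays 6 were called for VHL over all states. In HCT116 at 24 h, 1 was called with a pseudocount of 64 and 1 with null left missing, and 11 differed in level from HCT116 with RCC4 replicates averaged. CXCL8 changed sign between genotypes at 18 h without VHL-null replicate 1 at 18 h (0.35, in a range of -1.72 to 0.35 on leaving out 1 array). Over all states it did so without centring (0.03), with quantile normalization (0.02), within set 2 with or without the filter (0.29), and on leaving out single arrays (-0.06 to 0.07 in all). CCL20 had -0.02 at 4 h of reoxygenation against untreated cells without centring, and CCL20 and RELA had 0.01 between genotypes within set 1, with or without the filter. Of the values of single genes, 1003 kept direction and side of the threshold, 155 no longer passed, 142 newly passed and 14 changed sign. Dim genes near null are limited by signal over background.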
